A study of Mus musculus with 25 samples.

Results

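The comparison described here is between late 2-cell embryos (L2C) and early 2-cell embryos (E2C) that grew from oocytes lacking Smarca4 (knockout, KO), with 3 libraries at each stage. These 6 libraries were taken by their titles from a mouse series of 25 RNA libraries. Of the 24412 gene symbols in the files, 10543 were tested, those that reached 1 FPKM in 3 or more of the 6. FPKM is a level normalised for transcript length and library size and is the unit in which the authors deposited the data. The question is how far the major wave of zygotic genome activation goes in embryos from KO oocytes.

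Smarca4 encodes Brg1, an ATPase that drives the BAF (SWI/SNF) chromatin remodelling complexes, which slide and evict nucleosomes. The growing oocyte loads the egg with RNA and protein, and the embryo destroys much of that stored RNA while its own genome is switched on. In the mouse a minor wave of transcription in the zygote and early 2-cell embryo is followed by a major wave at the late 2-cell stage. A short-lived 2-cell programme, which includes Dux, the Zscan4 family and copies of endogenous retroviruses, is switched on in early cleavage and is turned down as the major wave proceeds. The major wave also brings up the machinery for making ribosomes, which the stored RNA supplies only for a time.

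Per the labels, the KO oocytes came from C57BL/6 females with floxed Smarca4 alleles and Gdf9-Cre, a driver active in growing oocytes, so the deletion was made in the oocyte. The oocytes of the series came from such females or from B6D2F1 hybrid females, aged 8 to 12 weeks in both cases, superovulated with 7 IU of PMSG and, 48 h later, 5 IU of hCG. They were used for injection of sperm. The sources used here do not give the sperm, the number of embryos in a library, or which strain of female stands behind a wild-type (WT) library. Strain and genotype therefore cannot be told apart between KO and WT libraries, whereas both stages of the KO comparison have the same genotype label. Also used were 3 WT L2C and 3 WT E2C libraries and, for the course over stages, MII oocytes (2 KO and 3 WT libraries) and PN3 zygotes (4 of each). Whether replicates stem from different females is not labelled, and the p-values rest on the spread between libraries alone, which may be technical.

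All libraries were made from total RNA depleted of ribosomal RNA, so the values do not depend on poly(A) tails being captured. They were scaled to each other over 6492 genes present in every library, and a change is a difference of log2(scaled FPKM + 1). FPKM values are relative to the rest of a library and carry no read counts, so depth is unknown and a change in total RNA per embryo cannot be seen. In embryos pooled in bulk, fewer embryos with an RNA and less of it per embryo cannot be told apart. Genes above 0 numbered 13585 to 16455 in the KO L2C libraries and 14026 to 15550 in the KO E2C libraries. Across the 11560 genes tested in the 2-cell libraries, KO L2C replicates 2 and 3 correlated at r = 0.99 with each other and at 0.95 with replicate 1. WT L2C replicate 3 stood apart from its group: it correlated at 0.98 with KO L2C replicates 2 and 3 and at 0.92 with the other 2 WT L2C libraries. WT E2C replicate 2 had 9345 genes above 0, against 13793 and 15560 in the other 2 WT E2C libraries. Neither library enters the KO comparison. Whether WT L2C replicate 3 has the right label or the same developmental time as its group was not tested, and every value set against WT late embryos depends on it. Such values are therefore given library by library or, for the main counts, also without that library.

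Smarca4 itself checks the labels, and every KO library was under every WT library of its stage. In KO embryos Smarca4 (chr9:21616106-21704230, GRCm38) had 22.4, 21.0 and 22.4 scaled FPKM at L2C, against 1.82, 0.767 and 5.12 at E2C. The earlier stages were lower still, at 0.219 and 0.221 in KO MII oocytes and 0.222 to 0.448 in KO PN3 zygotes. The change between the 2-cell stages was 2.88 ± 0.38 (log2, SE; limma adjusted p = 0.000219), so Smarca4 RNA rose in embryos whose oocytes had carried under 0.3 scaled FPKM of it. WT embryos held 90.4, 74.0 and 48.5 at L2C and 31.4, 34.9 and 18.98 at E2C. Which allele the KO RNA came from was not tested, and the part of the gene that was deleted is not given in the labels used here. Smarca2, which encodes Brm, the other ATPase of these complexes, fell to 33.8, 41.6 and 38.0 in KO L2C embryos, against 69.3, 63.0 and 58.7 in KO E2C embryos (change -0.74 ± 0.14, adjusted p = 0.00147).

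Of the 10543 genes tested in KO embryos, 3692 (35.0%) rose and 2207 (20.9%) fell at L2C, 56.0% in either direction, by limma on the 6 KO libraries at a Benjamini-Hochberg adjusted p under 0.05. The median change of all genes tested was 0.16. Rises were the larger changes: 864 genes rose by 2 or more on the log2 scale and 71 fell by 2 or more. The 3 libraries of one stage lay wholly above those of the other for 63.2% of all genes tested and for 98.3% of the genes called. Of the genes tested, 762 passed the filter on low values only through L2C libraries and 104 only through E2C libraries, and these had to differ between the stages. Without KO L2C replicate 1, the one that stood somewhat apart, 2900 genes rose and 2040 fell of 9692 tested. With 2 L2C libraries left, the 762 genes could not pass the filter of 3 libraries, so part of this drop is by construction.

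**Figure D1:**
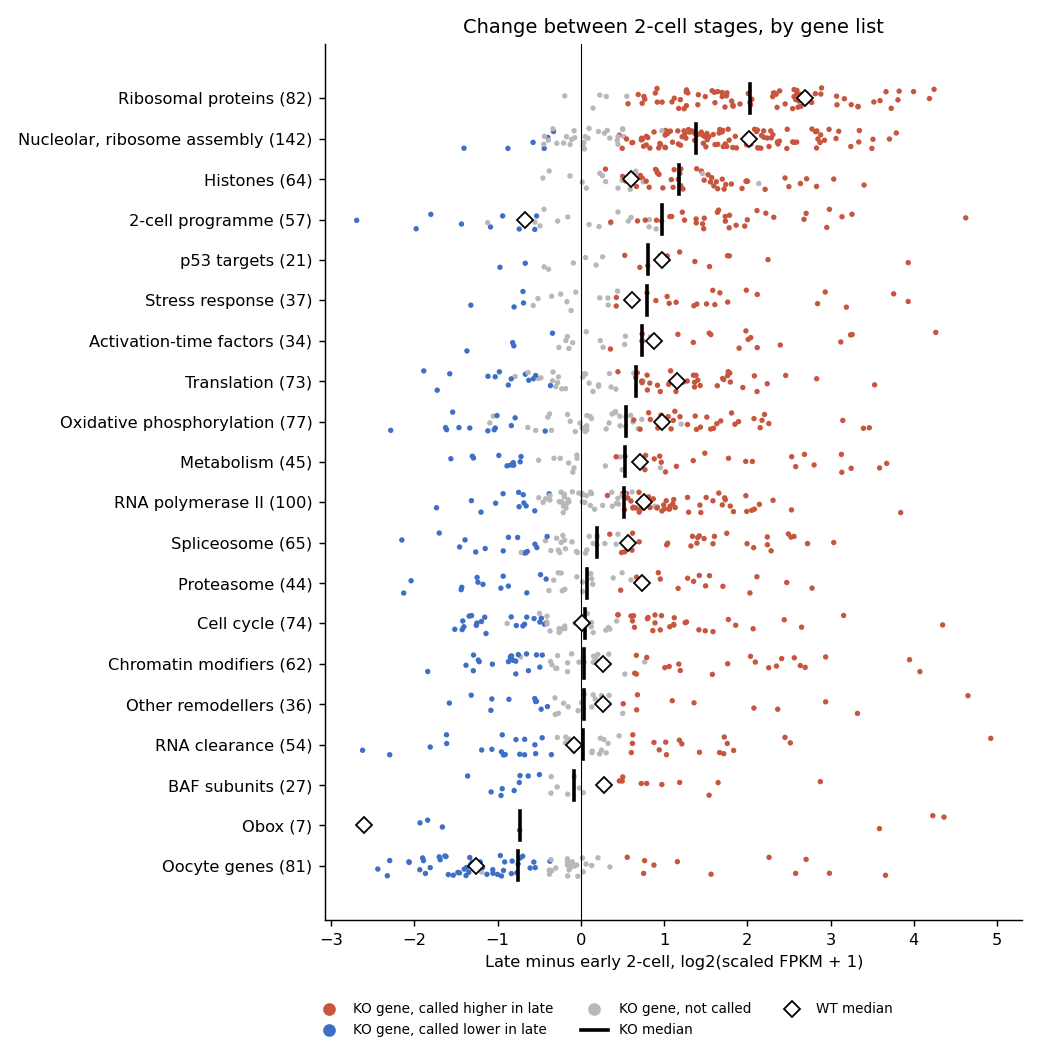
Change between the 2-cell stages for the members of 20 gene lists. Each dot is 1 gene in KO embryos (late minus early 2-cell, log2 scale), black bars are KO medians and diamonds WT medians, with the number of KO genes tested in brackets. Ribosomal proteins lie highest, with a KO median of 2.04, and oocyte genes lowest, with a KO median of -0.75. The KO and WT medians of the 2-cell programme lie on opposite sides of 0.

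The 10 largest rises among well-expressed genes were of varied function. Vimp, which encodes selenoprotein S, a protein of the pathway that removes misfolded proteins from the endoplasmic reticulum, had 90.6, 91.9 and 94.6 scaled FPKM in KO L2C embryos and 0.444, 0.598 and 0.641 in KO E2C embryos (change 5.90 ± 0.16, adjusted p = 2.2e-07). The late libraries differ little from each other. That the stages do not overlap was a condition for these 10 genes. Vimp, Rab20 and Pramel7 also passed the filter only through L2C libraries, so they had to rise. Mt1, the metal-binding metallothionein 1, had 216, 248 and 289 at L2C against 5.802, 6.50 and 3.91 at E2C (5.31 ± 0.19, adjusted p = 7.95e-07). Rab20, a small GTPase of membrane traffic, had 57.0, 32.5 and 40.8 at L2C, against 0.372 in 1 E2C library and a listed 0 in the other 2. Hipk1, a nuclear serine/threonine kinase, averaged 62.1 ± 11.9 at L2C and 0.964 ± 0.293 at E2C (SD, n = 3 each). The others were Gm11517, Pabpc1, Zscan5b, Btbd18, Mta2 and Pramel7, with changes of 4.62 to 5.52. WT embryos raised the same 10 genes by 3.94 to 6.00, and the difference of the KO and WT changes was not called for any of the 10 by limma over all genes (smallest unadjusted p = 0.0282, for Mt1).

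Among the 20 lists plotted, the ribosomal protein genes had the largest share of members that rose. All 82 listed ribosomal protein genes passed the filter, 77 of them rose (93.9%, against 35.0% of all genes tested) and none fell. The median change was 2.04, against 0.16 for all genes tested. Both subunits took part, with 45 of 48 large-subunit (Rpl) genes and 30 of 32 small-subunit (Rps) genes higher at L2C. Rps26 had 180.1, 218 and 260.3 scaled FPKM in KO L2C embryos and 9.71, 9.06 and 14.8 in KO E2C embryos (change 4.19 ± 0.20, adjusted p = 1.84e-06). Rps23 rose by 4.00 ± 0.18 and Rpsa, the laminin-receptor-like protein of the small subunit, by 3.82 ± 0.19. Rpl26 rose by 4.24 ± 0.56, with 41.0, 7.48 and 40.5 at L2C and under 1 in each E2C library, and its second L2C value lies far under the other 2. It passed the filter only through L2C libraries, so it had to rise. Ribosomal protein genes have many processed copies in the genome, and the sources used here do not say how reads were shared among copies.

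The nucleolar list holds factors of ribosome assembly and RNA polymerase I. Of the 144 listed genes 142 were tested. Of these 108 rose and 6 fell (76.1% and 4.23%, against 35.0% and 20.9% of all genes tested). The median change was 1.39. The 4 that passed only through L2C had to rise, and the median of the other 138 was 1.35. Among the 14 subunits and factors of RNA polymerase I that were tested, 11 rose and none fell. Nol11, which is needed for transcription and processing of ribosomal RNA, had 29.4, 24.8 and 25.1 scaled FPKM in KO L2C embryos and 1.22, 0.347 and 1.58 in KO E2C embryos (change 3.79 ± 0.26, adjusted p = 6.59e-06). Mak16 and Nop16, factors of the large subunit's assembly, rose by 3.71 ± 0.20 and 3.51 ± 0.25. Nop2, a methyltransferase of ribosomal RNA, had 53.8, 31.2 and 33.5 at L2C and 3.79, 0.997 and 3.42 at E2C (3.50 ± 0.35, adjusted p = 4e-05).

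The promoters of the nucleolar genes were searched on both strands for short motifs. RefSeq windows of 300 bases around a gene's start, most of each lying upstream (GRCm38.p6), were matched for 120 of the 144 genes (137 windows). CCGGAAG, the element of ETS-family factors such as Gabpa, was added to the search after the values had been seen. It was in 40.1% of the nucleolar windows, against 18.1% of the windows of genes tested in KO embryos (79.7% of which had a window), 8.86% of all 32851 RefSeq windows and 15.5% of the windows of genes that fell by 1 or more in KO embryos. It was about as common in the proteasome windows, at 38.6%, and the spliceosome windows, at 37.5%, lists that moved in both directions, so it is not particular to genes that rose. CACGTG, the E-box of Myc-type factors, was in 18.2% of the nucleolar windows, against 10.1% of the windows of genes tested in KO embryos, 7.15% of all windows and 7.19% of the windows of the genes that fell. In the translation list, with windows for 75.3% of its genes, it was in 25.0%. CCAAT, the element of NF-Y, was in 35.8% against 37.4% of all windows. AAGGTCA and AAGGCCA, elements of nuclear receptors of the Nr5a2 and Esrrb type, were in 1.46% and 4.38%, against 4.72% and 6.2% of all windows. For the ribosomal proteins 74.4% of the genes had a window, 72 windows in all. CACGTG was in 11.1% of these, against 10.1% of the windows of genes tested in KO embryos, and CCGGAAG in 36.1%, against 18.1%. The list with the largest share of rises thus had CACGTG about as often as the genes tested. A match says that the letters are there, not that a factor binds. The Nop2 window (chr6:125131633-125131932, plus strand) holds CACGTG and CCGGAAG, shown in capitals, 5′ to 3′.
Nop2: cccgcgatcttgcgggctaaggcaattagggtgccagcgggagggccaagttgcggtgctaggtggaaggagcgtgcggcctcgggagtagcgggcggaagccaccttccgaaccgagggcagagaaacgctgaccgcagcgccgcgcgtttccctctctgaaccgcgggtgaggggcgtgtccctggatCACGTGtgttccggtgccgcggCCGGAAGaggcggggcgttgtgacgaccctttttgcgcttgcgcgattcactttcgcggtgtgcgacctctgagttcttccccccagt

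The rest of the gene expression machinery rose less evenly. The translation list holds initiation factors, tRNA synthetases and the chaperonin. Of its 73 genes tested, 37 rose and 13 fell (50.7% and 17.8%, against 35.0% and 20.9% of all genes tested). Within them 23 of 40 initiation factor genes rose and 6 fell, whereas among the tRNA synthetases 6 of 20 rose and 6 fell. Eif3c and Eif3a, subunits of the factor that prepares the small ribosomal subunit for messenger RNA, rose by 2.83 ± 0.19 and 2.46 ± 0.14. Cct6a, a subunit of the chaperonin that folds actin and tubulin, had 43.2, 32.5 and 30.1 scaled FPKM in KO L2C embryos and 2.06, 0.503 and 5.52 in KO E2C embryos (3.53 ± 0.44). Of 100 genes of RNA polymerase II and its cofactors 50 rose and 12 fell (50% and 12%), and 9 of the 12 polymerase subunits rose. Med29, a Mediator subunit, had 42.8, 36.4 and 36.8 at L2C and 2.11, 1.87 and 1.34 at E2C (3.84 ± 0.19, adjusted p = 1.84e-06). Ell2 and Cdk9, which release paused polymerase into elongation, rose by 2.53 ± 0.17 and 2.31 ± 0.23. Mediator as a whole was mixed, with 11 of 28 genes higher and 5 lower (39.3% and 17.9%), near the shares of all genes tested.

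Spliceosome, proteasome and mitochondrial genes moved in both directions. Of 65 spliceosome genes 27 rose and 15 fell (41.5% and 23.1%, against 35.0% and 20.9% of all genes tested). Snrpc, a protein of the U1 particle, had 173, 165 and 180.2 scaled FPKM in KO L2C embryos and 20.5, 13.2 and 30.1 in KO E2C embryos (3.04 ± 0.24). Of 44 proteasome genes 15 rose and 13 fell (34.1% and 29.5%). Psmd7, of the regulatory cap, rose by 2.47 ± 0.22, while Psmd10, a chaperone of cap assembly, fell to 2.35, 1.72 and 1.97 at L2C, against 8.84, 14.9 and 13.4 at E2C (-2.13 ± 0.23). Of 77 genes of oxidative phosphorylation 31 rose and 13 fell (40.3% and 16.9%), near the shares of all genes tested. Ndufb10 rose by 3.47 ± 0.22 and Ndufa8 fell by 2.28 ± 0.34 on the log2 scale, although both encode accessory subunits of complex I. Ndufa8 passed the filter only through E2C libraries, so it had to fall. Atp5j, of ATP synthase, rose by 3.40 ± 0.29. Its annotated span overlaps that of Gabpa on chromosome 16, and the sources used here do not say whether strand was used in counting. Of 45 metabolic genes 23 rose and 10 fell (51.1% and 22.2%). The 6 that passed only through L2C, Ppat among them, had to rise, and 17 of the 38 that passed through both stages rose. Ppat, which commits to purine synthesis, had 21.3, 20.0 and 20.0 at L2C and 0.367, 0.648 and 1.10 at E2C (3.67 ± 0.21), and Impdh2, of guanine nucleotide synthesis, rose by 3.25 ± 0.23.

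**Figure D2:**
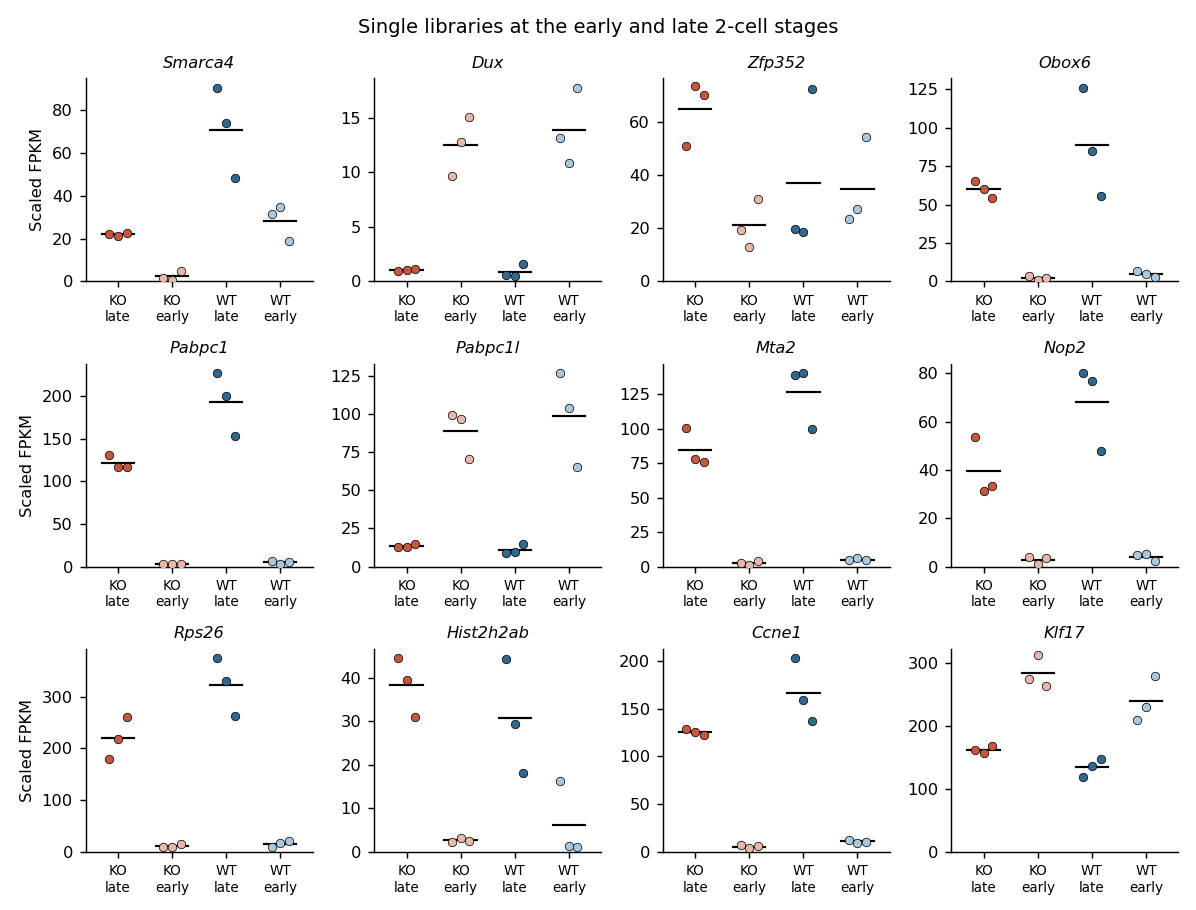
Scaled FPKM of 12 genes in each KO and WT 2-cell library. Points are single libraries and lines are group means (n = 3 each). Late KO values lie above early KO values for Smarca4, Zfp352, Obox6, Pabpc1, Mta2, Nop2, Rps26, Hist2h2ab and Ccne1, and under them for Dux, Pabpc1l and Klf17. Within the late WT group, 1 library has 72.6 for Zfp352 and the other 2 have 19.8 and 18.6.

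Cell cycle and chromatin genes held some large single rises, while their shares of rises were near the 35.0% of all genes tested. Of 74 cell cycle genes 29 rose and 20 fell (39.2% and 27.0%). Ccne1, cyclin E1, which drives entry into S phase, had 129, 126 and 122 scaled FPKM in KO L2C embryos and 6.63, 3.59 and 5.88 in KO E2C embryos (4.35 ± 0.20, adjusted p = 1.84e-06). Cdk1, the kinase of mitotic entry, rose by 2.44 ± 0.22, and Cdc25c, the phosphatase that activates it, by 3.16 ± 0.19. Of 62 chromatin modifier genes 21 rose and 20 fell (33.9% and 32.3%). Kdm5b, a histone H3K4 demethylase, had 71.3, 69.7 and 72.6 at L2C and 3.38, 2.12 and 4.78 at E2C (4.07 ± 0.22), and its relative Kdm5a rose by 2.69 ± 0.21. Kdm5a passed the filter only through L2C libraries, so it had to rise. Prmt6, an arginine methyltransferase, rose by 3.95 ± 0.27.

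Among remodellers other than BAF, 10 of 36 genes rose and 10 fell (27.8% each, against 35.0% and 20.9% of all genes tested). Mta2, a subunit of the NuRD deacetylase complex, had 100.1, 78.0 and 75.6 scaled FPKM in KO L2C embryos and 2.42, 1.35 and 3.80 in KO E2C embryos (4.65 ± 0.26, adjusted p = 3.15e-06). Hdac1, the deacetylase that NuRD shares with other complexes, rose by 2.94 ± 0.21, and Ruvbl1, an ATPase of the INO80 and TIP60 complexes, by 3.32 ± 0.27. Of 27 BAF subunit genes 10 rose and 9 fell (37.0% and 33.3%). After Smarca4 the largest rise there was Smarcc1, the core subunit BAF155, with 21.8, 23.6 and 21.9 at L2C and 6.20, 6.82 and 6.39 at E2C (1.65 ± 0.16, adjusted p = 3.32e-05). Dpf2 rose by 1.54 ± 0.29, while its relative Dpf3 fell by 1.36 ± 0.19 on the log2 scale. The Mta2 window (chr19:8941670-8941969, plus strand, GRCm38.p6) is shown because Mta2 is among the 10 largest rises. It holds CCGGAAG on both strands in overlapping matches just before the start, in capitals.
Mta2: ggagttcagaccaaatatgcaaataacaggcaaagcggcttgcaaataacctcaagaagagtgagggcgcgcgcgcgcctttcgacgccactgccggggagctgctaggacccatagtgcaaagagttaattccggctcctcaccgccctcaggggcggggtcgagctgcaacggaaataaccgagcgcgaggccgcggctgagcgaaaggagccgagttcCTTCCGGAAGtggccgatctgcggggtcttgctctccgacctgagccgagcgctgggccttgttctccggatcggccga

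Genes of the transient 2-cell programme rose more often than they fell in KO embryos. Of 69 listed genes 60 are in the files and 57 were tested: 33 rose, 9 fell and 15 were not called. The shares that rose and fell were 57.9% and 15.8%, against 35.0% and 20.9% of all genes tested. The median change was 0.97. The 3 that passed the filter only through L2C had to rise. Of the other 54, 30 rose, and their median was 0.91. Zfp352, a zinc-finger gene of the 2-cell stage, had 50.9, 73.3 and 70.2 scaled FPKM in KO L2C embryos and 19.4, 12.9 and 31.1 in KO E2C embryos (1.64 ± 0.28, adjusted p = 0.000939). The groups do not overlap. All 5 Tdpoz genes rose, Tdpoz1 by 3.14 ± 0.23 and Tdpoz4 by 2.99 ± 0.29. Pramel7 and Pramel6 rose by 4.62 ± 0.22 and 3.26 ± 0.28. Both passed the filter only through L2C libraries, so they had to rise.

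The Zscan4 genes, DNA-binding proteins that mark 2-cell-like cells, were mostly not called. Zscan4d (chr7:11161643-11166148) had 14.7, 22.2 and 23.3 scaled FPKM in KO L2C embryos and 11.7, 8.82 and 32.7 in KO E2C embryos, a change of 0.36 ± 0.40 (adjusted p = 0.479). The E2C libraries spread over the whole range of the L2C libraries, and without KO E2C replicate 3, the highest of them, the change was 0.89 and was called (adjusted p = 0.0131). Of the 5 Zscan4 genes tested only Zscan4a was called, at 0.97 ± 0.29 (adjusted p = 0.0163), and it is named here after its values were seen. The Zscan4, Tdpoz, Usp17l, Pramel and Obox genes have near-identical copies, so values of single members are uncertain. Dux, the transcription factor that activates Zscan4 and retroviral elements, went the other way and had 0.977, 1.02 and 1.18 at L2C against 9.69, 12.7 and 15.0 at E2C (-2.69 ± 0.22, adjusted p = 1.34e-05). Dux fell by 3.03 on the log2 scale in WT embryos. Of 29 tested genes that are Dux, its activators or repressors of the 2-cell programme, 14 rose and 7 fell in KO embryos (48.3% and 24.1%). The Zscan4d window (chr7:11166099-11166398, minus strand of the chromosome, GRCm38.p6) is shown because Zscan4d was not called where Dux fell. In capitals are TGACCTT, the reverse complement of the nuclear receptor element AAGGTCA, and CCAAT.
Zscan4d: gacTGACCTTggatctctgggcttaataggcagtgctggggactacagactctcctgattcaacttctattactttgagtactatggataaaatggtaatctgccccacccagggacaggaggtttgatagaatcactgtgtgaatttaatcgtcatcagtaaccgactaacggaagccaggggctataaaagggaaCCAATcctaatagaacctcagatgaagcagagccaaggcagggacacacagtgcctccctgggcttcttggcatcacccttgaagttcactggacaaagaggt

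The Obox genes, homeobox factors of oocyte and early embryo, went in both directions. All 7 tested were called. Obox3, Obox6 and Crxos rose, and Obox1, Obox2, Obox5 and Obox7 fell. Obox6 had 65.5, 60.3 and 54.4 scaled FPKM in KO L2C embryos and 3.31, 0.715 and 2.51 in KO E2C embryos (4.36 ± 0.31, adjusted p = 7.94e-06). Obox3 had 39.2, 56.6 and 48.1 at L2C and 1.15, 2.46 and 7.80 at E2C (3.59 ± 0.43). Obox1 fell to 96.1, 122.7 and 121 at L2C, against 396, 414 and 492 at E2C (-1.93 ± 0.14, adjusted p = 8.18e-06). The 3 that rose averaged 0 to 0.174 in KO MII oocytes and the 4 that fell 32.1 to 415.3. Obox1, Obox5 and Obox7 averaged 271.5, 261.8 and 32.1 in KO MII oocytes and more at E2C, with 433.9, 660.5 and 60.4. Obox2 alone had gone down by E2C, to 222.2. At L2C Obox5, with 404.5, was still above its MII mean.

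Transcription factors that come up with genome activation rose more often than they fell. Of 55 listed factors 34 passed the filter, 19 rose and 4 fell, with a median change of 0.74. These are 55.9% and 11.8%, against 35.0% and 20.9% of all genes tested. The 4 that passed only through L2C had to rise. Of the other 30, 15 rose, and their median was 0.64. Gabpa, the DNA-binding subunit of the ETS factor GABP, had 37.7, 40.7 and 40.2 scaled FPKM in KO L2C embryos and 1.56, 0.750 and 1.09 in KO E2C embryos (4.26 ± 0.20, adjusted p = 1.84e-06). Klf5, a Krüppel-like factor of early lineages, had 45.1, 31.8 and 37.1 at L2C and 6.24, 2.15 and 2.81 at E2C (3.12 ± 0.30). Tead4, the Hippo pathway factor of trophectoderm, had 4.89, 4.34 and 4.58 at L2C and 0.131, 0.064 and 0 at E2C (2.40 ± 0.21). Gata1 and Rarg rose by 3.26 ± 0.21 and 3.24 ± 0.19. The stages of Gabpa and Klf5 do not overlap. Tead4, Gata1 and Rarg were under 1 in every E2C library. They passed the filter only through L2C libraries and thus had to differ between the stages.

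The changes of the pluripotency factors were smaller. Nr5a2, an orphan nuclear receptor, had 28.2, 18.02 and 17.4 scaled FPKM in KO L2C embryos and 11.1, 11.3 and 13.9 in KO E2C embryos (0.74 ± 0.21, adjusted p = 0.0149), a call that was lost without KO E2C replicate 1 (adjusted p = 0.0511) or 2 (adjusted p = 0.0513). Sox2 rose by 1.35 ± 0.31 to a low level, 3.82, 3.98 and 3.93 at L2C. Klf17, supplied by the oocyte, fell to 162, 156 and 167 at L2C, against 275, 313 and 263 at E2C (-0.80 ± 0.11, adjusted p = 0.000296). Pou5f1 fell by 0.34 ± 0.12 on the log2 scale (adjusted p = 0.0392), and its call was lost without KO E2C replicate 1 or 3 and without KO L2C replicate 2 or 3 (adjusted p = 0.0819 to 0.178). Tfap2c had 24.5, 15.3 and 15.9 at L2C and 25.1, 22.4 and 14.5 at E2C and was not called (-0.14 ± 0.24, adjusted p = 0.643). Nanog, Gata6 and Cdx2, factors of later lineages, did not pass the filter and stayed under 0.6 in all 6 KO libraries.

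Stored oocyte RNA fell in the same interval. Of 81 oocyte genes tested, 46 fell and 11 rose (56.8% and 13.6%, against 20.9% and 35.0% of all genes tested). The median change was -0.75. Of the 12 Nlrp genes of the oocyte 10 fell (83.3%) and none rose. Of the 7 genes of the subcortical maternal complex 5 fell (71.4%) and none rose. Among the fixed markers of the oocyte, Bmp15, a growth factor the oocyte secretes, fell to 173, 271 and 259 scaled FPKM in KO L2C embryos, against 470, 457 and 511 in KO E2C embryos. Gdf9, its relative, had 141, 114 and 122 at L2C and 132, 143 and 139 at E2C and was not called, nor were Zp3, Oosp1 and Mos. The 4 largest changes on the list were rises: Ctsl, a lysosomal protease, rose by 3.66 ± 0.13, Slc39a4 by 2.99 ± 0.30, Ubtfl1 by 2.71 ± 0.18 and Rfpl4b by 2.58 ± 0.21. These 4 are not stored RNA, since in KO MII oocytes they averaged 0.354, 0.0408, 0 and 0.0246 scaled FPKM. Slc39a4 passed the filter only through L2C libraries, so it had to rise.

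The 10 largest falls among well-expressed genes were Rgs2, Speer5-ps1, Crabp2, Tmem261, Dux, Fam90a1a, Tubb3, Oas1h, Pabpc1l and Fam110c, with changes of -3.09 to -2.57. Rgs2, a brake on G-protein signalling, had 6.25, 14.9 and 13.6 scaled FPKM in KO L2C embryos and 71.6, 114 and 122 in KO E2C embryos (adjusted p = 4.27e-05). Tubb3, a beta-tubulin, had 19.7, 37.6 and 41.6 at L2C and 214, 174 and 236 at E2C. KO L2C replicate 1 was the lowest of the L2C libraries for 9 of these 10 genes. The embryonic and somatic poly(A)-binding proteins changed places. Pabpc1l, the form of oocyte and early embryo, fell to 13.1, 12.7 and 14.6 at L2C, against 99.1, 96.9 and 70.5 at E2C (-2.62 ± 0.16). Pabpc1, the somatic form, rose to 131, 117 and 117 at L2C, against 3.37, 2.73 and 3.04 at E2C (4.92 ± 0.15, adjusted p = 2.34e-07). The other genes of RNA clearance were split, with 17 of 52 higher and 18 lower (32.7% and 34.6%, against 35.0% and 20.9% of all genes tested), among them Tob1, which recruits deadenylases, and Dis3, the exosome's nuclease, with rises of 2.52 ± 0.22 and 2.45 ± 0.20.

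Histone genes rose and none was called lower. Of 64 histone genes tested 47 rose (73.4%, against 35.0% of all genes tested) and 17 were not called. The median change was 1.18. All 12 H4 genes rose, as did 14 of 18 H2A, 12 of 17 H2B, 7 of 12 H3 and 2 of 5 H1 genes. Hist2h2ab, a core H2A gene, had 44.5, 39.4 and 31.1 scaled FPKM in KO L2C embryos and 2.32, 3.19 and 2.57 in KO E2C embryos (3.40 ± 0.20, adjusted p = 3.5e-06). Hist1h3i rose by 3.04 ± 0.29, Hist2h4 by 2.83 ± 0.30 and Hist1h2ak by 2.71 ± 0.27. The coding sequences of such genes are nearly alike, so the share of each gene is uncertain. Their promoters share a feature that the counts did not use: CCAAT was in 85.2% of 61 windows of 60 histone genes, against 39.4% of the windows of genes tested in KO embryos and 37.4% of all windows. CCAAT was also common in the windows of the stress list, at 68.9%, the cell cycle list, at 66.7%, and the 2-cell programme, at 61.9%. A high share is thus not particular to the histones. CACGTG was in none of the 61 histone windows, and CCGGAAG in 1.64%. The Hist2h2ab window (chr3:96219635-96219934, plus strand, GRCm38.p6) holds CCAAT in 3 places, 2 of them on the other strand as ATTGG, in capitals.
Hist2h2ab: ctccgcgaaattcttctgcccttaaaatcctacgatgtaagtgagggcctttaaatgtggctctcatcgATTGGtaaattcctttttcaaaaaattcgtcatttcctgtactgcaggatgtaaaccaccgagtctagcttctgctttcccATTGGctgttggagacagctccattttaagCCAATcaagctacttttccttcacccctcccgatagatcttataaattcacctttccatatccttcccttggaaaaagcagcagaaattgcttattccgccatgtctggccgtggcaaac

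Genes of stress responses rose along with the rest. Of 37 tested, 22 rose and 4 fell (59.5% and 10.8%, against 35.0% and 20.9% of all genes tested). Sesn2, a sestrin induced by amino acid shortage and p53, had 57.4, 42.7 and 48.1 scaled FPKM in KO L2C embryos and 2.62, 1.59 and 2.75 in KO E2C embryos (3.93 ± 0.21, adjusted p = 2.73e-06). Dnajb9, a chaperone of the endoplasmic reticulum, rose by 3.76 ± 0.28, and Ppp1r15b and Trib3, feedback genes of the integrated stress response, by 3.19 ± 0.20 and 2.94 ± 0.33. Of 21 genes of p53, its regulators and its targets 13 rose and 2 fell (61.9% and 9.52%). Cdkn1a, the cell cycle inhibitor p21, had 4.26, 9.53 and 11.04 at L2C and 2.12, 0.581 and 2.46 at E2C (1.76 ± 0.38, adjusted p = 0.00359). In WT embryos 19 of 37 tested genes of the stress list and 10 of 20 of the p53 list rose, against 31.7% of all genes tested.

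Most markers of other cells were low. Of 17 cumulus and granulosa markers 12 were under 1 in all 6 KO libraries, and the summed level of all 17 was 23.0 to 28.0 scaled FPKM in KO L2C libraries and 29.9 to 45.6 in KO E2C libraries, so the stages did not overlap. Serpine2, also the largest part of each sum, had 10.1, 14.9 and 14.0 at L2C and 29.3, 25.5 and 39.6 at E2C. Of the 4 that passed, Amhr2 and Gja1 rose and Serpine2 and Cyp19a1 fell, while Inha, Ptx3, Pgr and Lhcgr were listed at 0 in all 6. Amhr2 passed only through L2C libraries, so it had to rise. The 13 blood markers summed to 1.07 to 2.201 at L2C and 1.34 to 1.83 at E2C. The 16 sperm and testis markers summed to 125 to 132 at L2C and 103 to 127 at E2C. Odf2, a gene also active outside sperm, made up most of these sums with 99.0 to 123.2 in the 6 libraries. Without it the sums were 6.518 to 9.221 at L2C and 3.636 to 21.79 at E2C, the highest in KO E2C replicate 2, where the protamine gene Prm2 had 14.8. Of the sperm list 4 genes passed, of which Tex101 and Ldhc rose, both of which passed through L2C libraries alone. The call of Ldhc was lost without any 1 of the KO E2C libraries (adjusted p = 0.0523 to 0.118). What part other cells had in the results was not tested beyond these sums. Markers of the 2-cell stage were present in every KO library.

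Genes that were silent before the 2-cell stage give a view of activation without stored RNA. For this count, 12492 genes under 0.5 FPKM in all 13 MII and PN3 libraries were followed. In KO embryos 291, 249 and 255 of them reached 5 FPKM in the L2C libraries, against 21, 21 and 38 in the E2C libraries. In WT embryos the numbers were 340, 354 and 280 at L2C and 54, 76 and 62 at E2C. The genes at 5 FPKM or more in all 3 libraries numbered 197 in KO L2C embryos and 212 in WT L2C embryos, with 164 shared, which is 83.2% of the KO set and 77.4% of the WT set. Without WT L2C replicate 3 the WT set was 277 genes in 2 libraries, with 167 shared, 84.8% of the KO set and 60.3% of the WT set. Asking for the level in 2 libraries in place of 3 can only keep or enlarge a set, so these shares are not like for like. Of the 48 that reached the level in WT and not in KO, 46 were at 1 FPKM or more in every KO L2C library and none was under 1 in all 3. Without WT L2C replicate 3, and so by the easier rule for WT, these were 110, of which 102 were at 1 or more in every KO L2C library and none under 1 in all 3. The highest of the KO set was Slc34a2, a phosphate transporter, with 149, 108 and 113 scaled FPKM at L2C and 6.94, 4.28 and 8.71 at E2C.

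**Figure D3:**
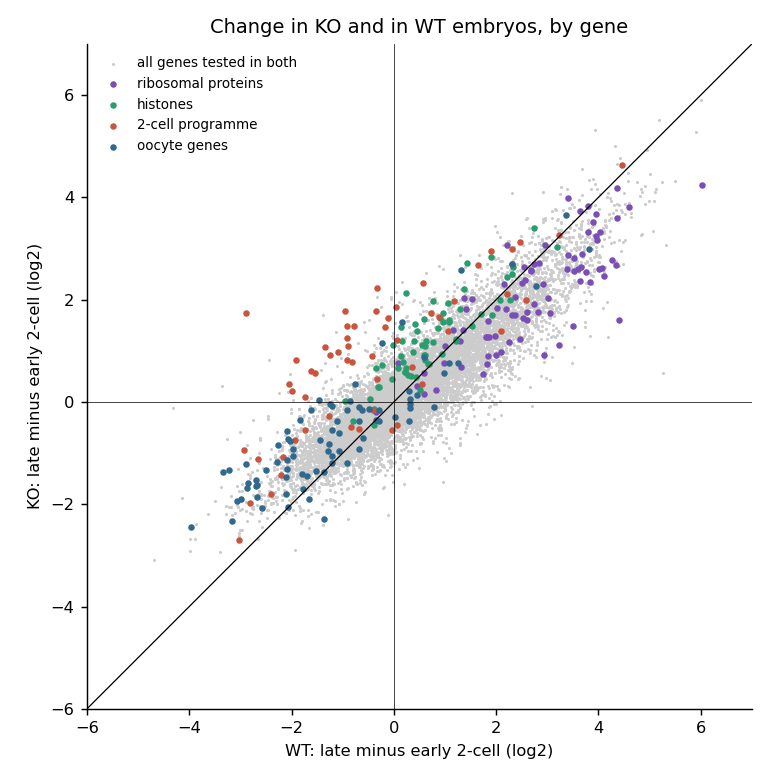
Change between the 2-cell stages in KO embryos (vertical) against that in WT embryos (horizontal), log2 scale, 1 point a gene for the 10023 genes tested in both, with 4 lists coloured. The diagonal marks equal change. Most ribosomal protein genes lie under it and most genes of the 2-cell programme, the oocyte list and the histones above it.

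Set beside WT embryos, most genes called in either genotype were called in the same direction in both. Of 10443 genes tested in WT, 3312 rose (31.7%) and 1716 fell (16.4%). Among the 10023 genes tested in both, 2749 rose in both, which is 77.2% of the KO risers and 87.8% of the WT risers. In both, 1361 fell, which is 64.5% of the KO fallers and 79.9% of the WT fallers. The changes correlated at r = 0.89 across genes, which are not independent of each other. Gm2022 and Ttc30b rose in KO and fell in WT embryos, and no gene did the reverse. Without WT L2C replicate 3, WT had 2555 higher (27.2%) and 1753 lower (18.7%) of 9385 genes. Then 2118 rose in both (70.3% of the KO risers and 83.4% of the WT risers), 1283 fell in both (61.8% and 73.4%), and r was 0.85. In that comparison 29 genes rose in KO and fell in WT, and 5 did the reverse.

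The difference of the changes, KO minus WT, was tested in the 12 libraries of the 2-cell stages together. No gene of 11560 passed an adjusted p of 0.05 by limma (0% called, smallest adjusted p = 0.437), and 1285 (11.1%) had an unadjusted p under 0.05, of which 572 (4.95%) were higher and 713 (6.17%) lower in KO. The result turned on WT L2C replicate 3: without it 318 genes were called higher and 163 lower (4.2% called), whereas leaving out any other single library called none. With libraries weighted by their quality 649 were higher and 476 lower, and with all 25 libraries in the fit 333 and 462. A gene called in KO and not in WT, or the reverse, is thus not shown to differ between them in the fit of the 12 libraries.

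Descriptively, the rise of the genes that rose most was smaller in the KO libraries than in 2 of the 3 WT libraries. For the 1389 genes tested in KO that had risen by 2 or more in WT embryos, the median change over genes was 2.24, 2.03 and 2.05 in the KO L2C libraries, each taken against the KO E2C mean, and 3.03, 2.84 and 2.31 in the WT L2C libraries against the WT E2C mean. Of these genes 1343 rose in KO embryos, and 331 of the 1389 passed the filter only through L2C. A list chosen by WT change favours WT, so the 864 genes that rose by 2 or more in KO embryos were also taken: their medians were 2.74, 2.48 and 2.53 in the KO libraries and 3.26, 3.08 and 2.61 in the WT libraries. There the lowest WT library lies within the KO range. For 1233 genes chosen by WT change without WT L2C replicate 3, the medians were 2.15, 1.95 and 1.96 in the KO libraries and 2.88, 2.69 and 2.18 in the WT libraries. Ribosomal proteins gave 2.23, 1.96 and 1.97 in KO and 3.11, 2.72 and 2.14 in WT libraries, and nucleolar genes 1.51, 1.34 and 1.35 in KO and 2.40, 2.19 and 1.61 in WT libraries. These WT values also depend on the WT E2C mean, which includes replicate 2, the library with few genes above 0. Without it the median difference, KO minus WT, of the 1410 genes chosen by WT change was -0.51, against -0.68 with all libraries. For ribosomal proteins it was -0.45 against -0.62, and for nucleolar genes -0.65 against -0.73. Of 82 ribosomal protein genes 16 had a smaller change in KO at an unadjusted p under 0.05, as had 47 of 144 nucleolar genes. None was called with all libraries. Without WT L2C replicate 3, 6 and 16 were called.

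For falls, too, 2 of the 3 WT libraries stood apart from KO, while WT replicate 3 lay near or within the KO range. For the 248 genes that had fallen by 2 or more in WT embryos the medians were -1.70, -1.52 and -1.43 in the KO libraries and -2.82, -2.69 and -1.71 in the WT libraries, and 232 of them fell in KO. That list was chosen on WT and favours a larger WT fall. For the 71 genes that fell by 2 or more in KO embryos the medians were -2.64, -2.12 and -2.01 in the KO libraries and -2.91, -2.80 and -2.15 in the WT libraries. For 119 genes chosen by the mean of both changes they were -2.23, -1.85 and -1.84 in the KO libraries and -3.19, -3.00 and -2.04 in the WT libraries. Oocyte genes gave -0.88, -0.71 and -0.60 in KO and -1.78, -1.33 and -0.70 in WT libraries. The 2-cell programme gave 0.77, 1.12 and 1.32 in KO and -1.37, -0.78 and 0.43 in WT libraries. Of its 57 genes 28 had a higher change in KO at an unadjusted p under 0.05 and none a lower one. None was called with all libraries, and 25 were called without WT L2C replicate 3. In Zscan4d the change was 0.36 in KO and -2.06 in WT embryos (difference 2.42, unadjusted p = 0.0141, adjusted p = 0.437), and WT L2C embryos held 4.32, 4.73 and 33.4 scaled FPKM. Histone genes gave 1.22, 1.12 and 1.15 in KO and 0.55, 0.63 and 0.60 in WT libraries, with all 3 WT libraries alike. The early groups differed in level: the mean log2(scaled FPKM + 1) was 3.84 to 4.15 in KO E2C and 4.22 to 4.37 in WT E2C libraries. At L2C the libraries overlapped, at 5.06 to 5.34 in KO and 4.96 to 5.11 in WT. The larger KO change is thus not a clear excess of histone RNA at L2C. Of the 64 histone genes 10 had a higher change in KO at an unadjusted p under 0.05, and none was called with or without WT L2C replicate 3.

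**Figure D4:**
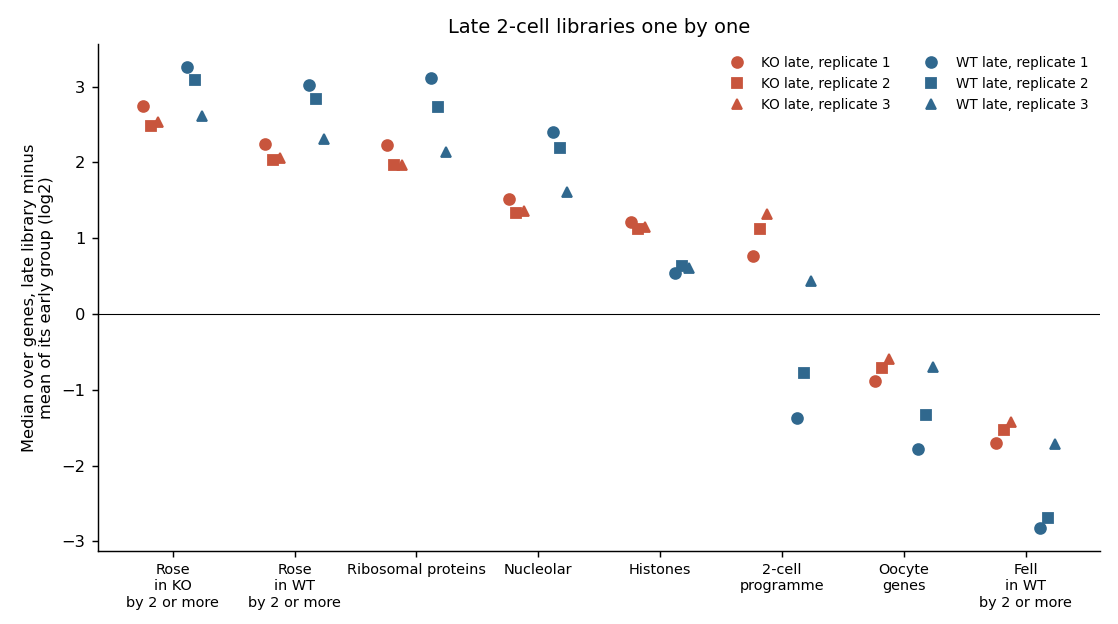
Median change over the genes of 8 lists for each late 2-cell library against the mean of its own early group (log2 scale), KO in red left of WT in blue, with a marker shape for each replicate. WT replicate 3 lies nearer to the KO libraries than to the other 2 WT libraries in each list except the histones, where the WT libraries lie together at 0.55 to 0.63.

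The course over 4 stages shows where the KO embryos started from. On the log2(scaled FPKM + 1) scale, the mean level of the ribosomal protein genes was 5.14 in KO MII oocytes, 4.04 in KO zygotes, 3.55 in KO E2C and 5.62 in KO L2C embryos. Over the same stages the nucleolar genes had 3.68, 3.53, 3.06 and 4.42. Both had thus dropped before they rose. Histone genes climbed at each step, with 2.66, 3.13, 3.95 and 5.18, and oocyte genes went down at each step, with 6.57, 6.24, 6.13 and 5.58. The 2-cell programme stood at 1.18 and 1.31 in KO MII and PN3 libraries, at 3.27 ± 0.40 in KO E2C libraries and at 4.16 ± 0.18 in KO L2C libraries (SD, n = 3 each). The WT means were 3.97 ± 0.34 at E2C and 3.63 ± 0.74 at L2C, so the KO E2C mean lies under the WT E2C mean and the KO L2C mean above the WT L2C mean. The E2C libraries of KO, at 2.98 to 3.73, and of WT, at 3.75 to 4.36, do not overlap, and the L2C libraries of KO, at 3.95 to 4.26, lie within the WT range of 3.13 to 4.47.

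**Figure D5:**
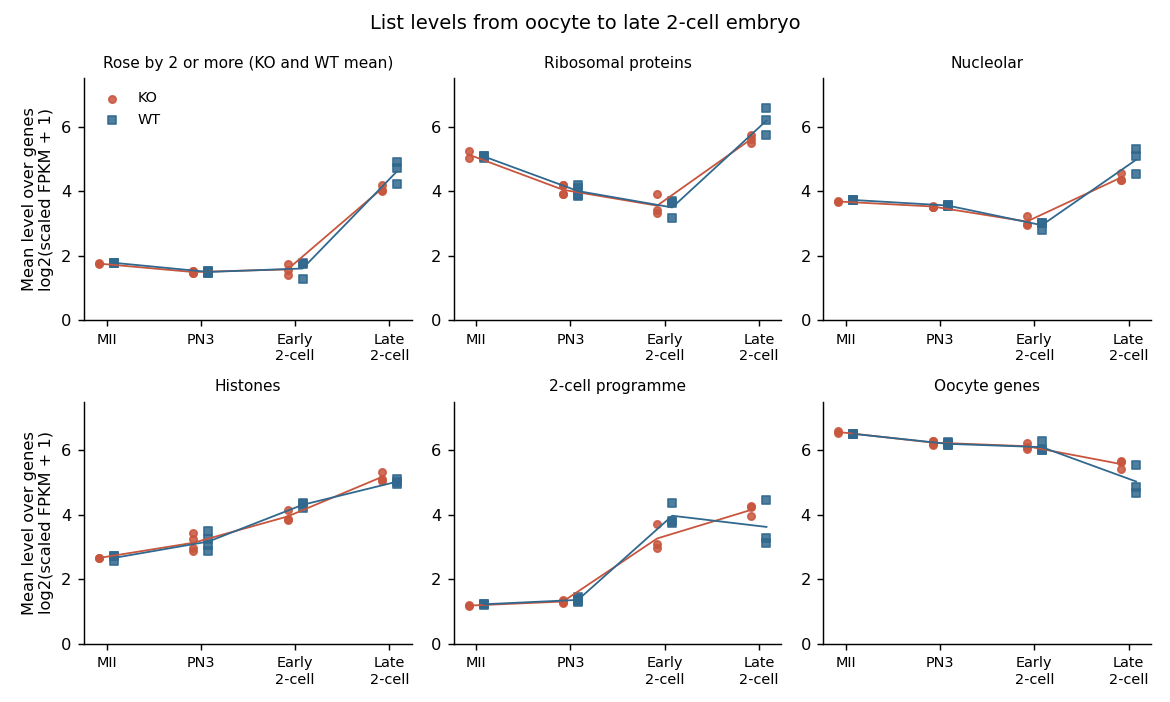
Mean level of 6 gene lists in each library from MII oocyte to late 2-cell embryo (log2(scaled FPKM + 1)), with points for libraries and lines through group means, KO in red and WT in blue. The first list was chosen by the mean 2-cell change of KO and WT, so its late rise is by choice. Ribosomal protein and nucleolar levels are lowest at the early 2-cell stage in both genotypes.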

How the data were processed

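Each library has 1 deposited table of FPKM values made by the authors, with a row for each gene symbol. Per the submitters' processing notes, Trim Galore 0.4.5, HISAT2, StringTie and HTSeq were used with the builds mm10 and GRCm38. Their roles are not stated, so the counting method and its use of strand are not given in the sources used here. The low values showed no steps of whole reads when a pair of libraries was compared, so depth is unknown and no counting error is given.

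FPKM values were divided by a median-ratio factor over the 6492 genes at 1 FPKM or more in all 25 libraries and taken as log2(FPKM + 1). A pseudocount of 1 understates the changes of low genes. Genes at 1 FPKM or more in at least 3 of the 6 KO 2-cell libraries were fitted with limma 3.58.1 in R 4.3.3 (trended, robust empirical Bayes, 4 residual degrees of freedom), without the other libraries because the 2-cell groups vary more than the MII and PN3 groups (median SD 0.214 and 0.244 in KO L2C and KO E2C, 0.0722 and 0.117 in KO MII and KO PN3). Calls were made at a Benjamini-Hochberg adjusted p under 0.05, with every gene of the fit in the adjustment. The difference of KO and WT changes was the interaction term in 12 libraries (8 residual degrees of freedom). An exact permutation test of 3 against 3 libraries cannot go below p = 0.1, so none was run. The fits were tested on simulated data.

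Named genes were Smarca4, Smarca2, a set of 14 fixed genes, up to 4 called members of each list with the largest absolute change, and the 10 largest rises and 10 largest falls with a mean of at least 10 in the higher group and no overlap. The members and lists were chosen with earlier results of these data known. Gene spans are from GENCODE vM21 and promoter windows from RefSeq, both on GRCm38. Alternatives tried were other pseudocounts, filters, scalings, variance models, library weights, a replicate block and leaving out each library. Comparisons with WT without WT L2C replicate 3, and lists of falls chosen by KO or mean change, were added after the values were seen. Figures were drawn with matplotlib 3.10.9.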

Additional observations from a re-analysis of the deposited data

How the results depend on the processing

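Of 112 named genes tested in KO embryos, 110 were called, and 107 of these kept their direction and their call under every alternative run. Most named genes were chosen for large called changes, so their stability does not stand for all genes. Of the 5899 genes called with the main settings, 4226 were also called without KO L2C replicate 3 and 4777 in the 12-library fit. Among the named genes that were called, not all were stable. The exceptions were Ldhc, Pou5f1 and Nr5a2. Over 1850 alternatives of single genes, 1825 left the call as it was, 20 lost it, 3 gained one and 2 turned the direction of a gene that was not called: Tfap2c gave 0.0077 without KO E2C replicate 1 and Zscan4d -0.0022 without KO E2C replicate 2. Zscan4d was called higher without KO E2C replicate 3 (0.8878, adjusted p = 0.0131) and with library weights (0.786), and Tfap2c was called lower with library weights (-0.4212) and gave -0.3659 without KO E2C replicate 3. Leaving out 1 library at a time gave 2500 to 3659 genes higher and 1709 to 2072 lower in KO. It gave 929 to 1429 activation genes, 99 to 106 nucleolar genes and 73 to 78 ribosomal protein genes higher, with 43 to 46 oocyte genes, 7 to 9 genes of the 2-cell programme and 0 to 1 histone genes lower. The counts of rises were wider: 22 (without KO L2C replicate 2) to 41 (without KO E2C replicate 3) genes of the 2-cell programme, against 33 with all libraries, and 43 to 54 histone genes, against 47. The difference of KO and WT changes gave 0 to 318 genes higher and 0 to 163 lower, and the non-zero counts came without WT L2C replicate 3. With all 25 libraries in the fit the difference gave 333 higher and 462 lower, and with library weights 649 and 476. Requiring a log2 change of 1 left 961 genes lower in KO and 5 of the 2-cell programme. The 12-library fit left 4 of the 2-cell programme lower, library weights called 1 histone gene lower, and the activation list taken by the KO change gave 864 genes. The filter of 3 libraries was kept when a library was left out. With 2 KO L2C libraries left, genes seen only at L2C could not pass, and 9595 to 9692 genes were tested, against 10543. Lower counts of rises there are thus in part by construction, as are those from the stricter threshold and the smaller lists. Other causes of these shifts were not tested. The replicate numbers did not pair the samples: deviations of same-numbered KO libraries correlated at 0.057, -0.098 and 0.103, and the fit with a replicate block called 3658 higher and 2221 lower. Over the other scalings the median change of all genes was 0.113 to 0.165. With no filter 18951 genes were fitted, of which 3744 were higher and 1944 lower. Depth is unknown, so a gene listed at 0 may lie below what its library could show.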

Other observations

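Smaller gene groups are read against the 35.0% of all genes tested that rose and the 20.9% that fell in KO embryos. Of 8 chaperonin genes 6 rose at L2C and none fell, and of 9 exosome genes 5 rose and none fell. Of 10 genes of the CCR4-NOT deadenylase 3 rose and 5 fell, and of 20 genes of replication origin licensing and firing 5 rose and 6 fell (25.0% and 30.0%). The 3 zona pellucida genes had changes of -0.37 to -0.04, and 1 was called lower. Gm2022, a gene of the 2-cell programme, changed by 1.07 in KO and by -1.35 in WT embryos (unadjusted p of the difference 0.00208), and Ttc30b, of the transport machinery of cilia, by 0.71 in KO and by -1.12 in WT embryos (0.00155). Both were named after their values were seen, and neither difference passed adjustment over all genes.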
